A study of Arabidopsis thaliana with 8 samples.

Results

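The tandem zinc finger (TZF) genes of *Arabidopsis thaliana* encode proteins in which a pair of zinc fingers of the CCCH type, each holding a zinc ion by 3 cysteines and 1 histidine, stand close together behind an arginine-rich stretch. Small RNA reads at 10 of these genes were examined, *TZF1* to *TZF5* and *TZF7* to *TZF11*, taken by their locus codes from a table of 24859 mRNA loci. *TZF6* (*PEI1*, AT5G07500) was not among them and is counted below with the other CCCH genes. The 10 genes were chosen by family membership and not by a cut on a measured value, but with earlier results of these data known. Of them, 5 (*TZF7* to *TZF11*) encode proteins that also carry ankyrin repeats. All 10 passed the filter on low counts that left 24722 loci for testing.

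Plantlets of the Col-0 accession were of 4 genotypes: WT, the T-DNA insertion mutants *urt1-1* and *xrn4-3*, and the double mutant *urt1-1 xrn4-3*. They were sampled after 24 days of in vitro culture in cycles of 12 h day (22 °C) and 12 h night (18 °C), and no genotype received a treatment. Each genotype has 2 libraries. The study defines its biological replicates as plants grown at separate times and in some cases from other seed, and the number of plantlets in a library was not given in the sources used here. One allele represents each gene, and whole plantlets were used, so that a change in the share of a cell type and a change of small RNA per cell cannot be told apart. URT1 uridylates deadenylated mRNAs at their 3′ end and XRN4 degrades uncapped mRNAs from the 5′ end in the cytosol.

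Plant TZF proteins bind RNA, shuttle between nucleus and cytoplasm and can gather in processing bodies and stress granules, the sites where mRNAs are decapped, stored or degraded. The members are known from hormone, seed, salt and defence responses. When fragments of an mRNA are copied into double-stranded RNA and cut by Dicer-like enzymes, small interfering RNAs (siRNAs) from that mRNA arise, and plants with impaired RNA decay are known to make more of them. A small RNA read at a locus therefore measures neither the mRNA level nor the protein, and the reads of 14 to 30 nt were not split here by size or strand, so that siRNAs, decay fragments, sense and antisense reads are counted together.

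The signature of the fingers was found by a script in all 10 proteins at 1 place each, in the order C, 7 or 8 residues, C, 5 residues, C, 3 residues, H, a linker of 16 residues, C, 5 residues, C, 4 residues, C, 3 residues, H. *TZF4* and *TZF5* have the spacing of 8 and the other members that of 7. The coding sequences of this signature are shown for the 4 genes whose small RNA rose in *urt1-1 xrn4-3* and for *TZF11*, the closest relative of *TZF10*, whose change did not pass the threshold. They are RefSeq sequences of the TAIR10.1 assembly, 5′ to 3′, and capitals mark the 8 codons of the zinc-binding cysteines and histidines.
TZF1, chr2:11042222-11042374, plus strand: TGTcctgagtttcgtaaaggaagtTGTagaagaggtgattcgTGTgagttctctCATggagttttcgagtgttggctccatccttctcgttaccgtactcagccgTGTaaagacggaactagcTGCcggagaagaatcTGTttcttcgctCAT
TZF7, chr2:17492270-17492422, plus strand: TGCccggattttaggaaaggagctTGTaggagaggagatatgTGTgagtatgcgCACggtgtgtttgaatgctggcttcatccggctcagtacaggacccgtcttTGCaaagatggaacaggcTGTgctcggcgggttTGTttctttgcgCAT
TZF9, chr5:23694721-23694873, plus strand: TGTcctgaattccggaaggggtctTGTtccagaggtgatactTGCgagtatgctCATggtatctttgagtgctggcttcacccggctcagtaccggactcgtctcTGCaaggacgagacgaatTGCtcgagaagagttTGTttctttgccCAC
TZF10, chr2:16773314-16773466, plus strand: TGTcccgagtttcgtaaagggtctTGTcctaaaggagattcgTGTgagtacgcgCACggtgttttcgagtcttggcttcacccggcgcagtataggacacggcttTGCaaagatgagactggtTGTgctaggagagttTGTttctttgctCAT
TZF11, chr3:20777625-20777777, plus strand: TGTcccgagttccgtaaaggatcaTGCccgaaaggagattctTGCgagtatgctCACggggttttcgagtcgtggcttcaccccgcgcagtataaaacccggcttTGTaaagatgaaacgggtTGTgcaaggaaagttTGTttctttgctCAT

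The signatures of *TZF10* and *TZF11* were identical at 86.9% of bases and 96.1% of residues. Those of *TZF2* and *TZF3* shared 87.6% of bases and 84.3% of residues, and those of *TZF7* and *TZF10* shared 79.1% and 86.3%. Similar sequence matters for the counting, because a read that aligns equally well to several loci was kept at each of them. Of the 45 pairs of members, 7 shared an exact run of at least 21 nt, the length of the most common class of plant siRNA from mRNAs. The longest runs lie in coding sequence and are shown because a 21-nt read from inside them cannot be given to 1 gene.
TZF10 and TZF11, chr2:16773190-16773225 and chr3:20777501-20777536, upstream of the fingers: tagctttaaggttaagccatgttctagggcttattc
TZF1 and TZF3, chr2:11042307-11042337 and chr4:14392816-14392846, within the signature: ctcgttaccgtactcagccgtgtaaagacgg
TZF2 and TZF3, chr2:8550884-8550914 and chr4:14392805-14392835, within the signature: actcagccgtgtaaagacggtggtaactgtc
*TZF7* and *TZF10* shared 23 nt upstream of the fingers. The windows of 21 nt with an exact copy anywhere else in the genome were few, from 0.109% of those of *TZF4* to 2.91% of those of *TZF3*, with 0.92% in *TZF10*, 1.24% in *TZF7* and 2.26% in *TZF1*. *TZF8* and *TZF9* shared no such window with another member. Alignments with 1 mismatch were also allowed in the mapping and were not searched for here.

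The libraries held 6045353 to 30064224 reads counted at mRNA loci, and the counts of the 10 members together were 1416 to 30090 reads. The library labelled *xrn4-3* replicate 2 stood apart from its partner: the correlation of log2 CPM (counts scaled to a common library size of 1000000 by TMM) between replicates was 0.904 in *xrn4-3* and 0.937 to 0.946 in the other genotypes. At *URT1* it held 271 CPM, against 14 CPM in *xrn4-3* replicate 1 and 5.93 to 15.7 CPM in the 6 other libraries. At *XRN4* the 8 libraries held 6.25 to 13.0 CPM, and small RNA at a gene with an insertion is no check of the genotype. The log2 fold changes of *TZF1*, *TZF5*, *TZF7* and *TZF10* in *xrn4-3* compared with WT are given with and without *xrn4-3* replicate 2. Other values that include this library, such as those of *MARD1* and the interaction, are given with it unless stated otherwise.

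In WT the small RNA level of the members, per kilobase of annotated locus so that genes of different length compare, ran from 1.35 CPM per kb at *TZF9* to 32.8 CPM per kb at *TZF8*. The median of the 10 was 7.71 CPM per kb, and that of all tested loci 2.07 CPM per kb. *TZF8* (AT5G12850) led, with 94.0% of the tested loci below it, followed by *TZF3* at 21.7, *TZF5* at 16.4, *TZF1* at 15.5 and *TZF2* at 10.4 CPM per kb. *TZF11* at 5.04, *TZF7* at 3.77, *TZF4* at 1.77, *TZF10* at 1.64 and *TZF9* at 1.35 CPM per kb closed the order. The SD over the 2 WT libraries was 18.2 CPM per kb for *TZF8* and 10.8 CPM per kb for *TZF3*, and the libraries of neighbours in this order overlapped at every step except that from *TZF7* to *TZF4*. The 2 loci with the largest fold changes in the double mutant, *TZF10* and *TZF7*, stood at ranks 9 and 7 of this order. The WT level is also the base of those fold changes, so that level and fold change are not independent.

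**Figure D1:**
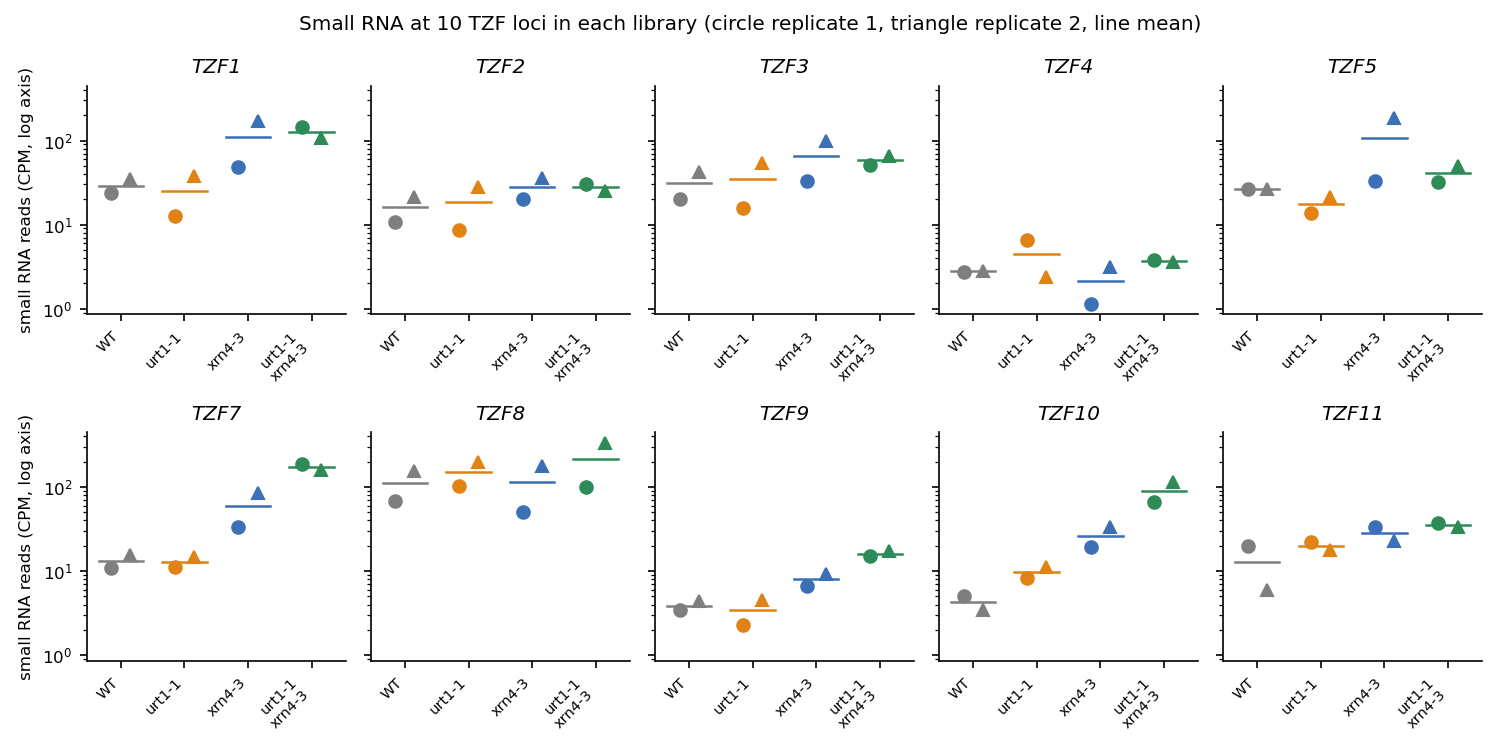
Small RNA reads in CPM (log axis) at each TZF locus for the 2 libraries of each genotype, with circles for replicate 1, triangles for replicate 2 and a line at the mean. *TZF10* stood at 3.44 and 5.04 CPM in the WT libraries and at 66.6 and 115 CPM in those of the double mutant, whereas at *TZF8* the libraries of all genotypes overlapped.

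In *urt1-1 xrn4-3* compared with WT, the small RNA of 4 of the 10 TZF loci rose and that of none fell. Of all tested loci, 10% rose and 1.05% fell in the same likelihood ratio test. The raised members were *TZF10* and *TZF7*, by 21.3-fold and 13.1-fold, and *TZF1* and *TZF9*, by 4.29-fold and 4.15-fold. Both double mutant libraries lay above both WT libraries at 9 members, all except *TZF8*, which was the case at 30.1% of the tested loci. The median log2 fold change of the 10 was 1.21, that of all tested loci 0.01. By the quasi-likelihood test, which allows for the uncertainty of each dispersion, *TZF7*, *TZF9* and *TZF10* remained called, and this test called 7.31% of the tested loci as raised. The *TZF1* call was lost there, as it was without either WT library or without replicate 1 of the double mutant.

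Among the members with ankyrin repeats, *TZF10* (AT2G40140, also called *SZF2*) and *TZF11* (AT3G55980, *SZF1*) are salt-inducible genes that act in the response to salt stress. At *TZF10* (TAIR10 position chr2:16772073-16774657, plus strand) the WT libraries held 5.04 and 3.44 CPM, *urt1-1* held 8.39 and 11.3 CPM, *xrn4-3* held 19.2 and 33.1 CPM and the double mutant held 66.6 and 115 CPM. The 4 genotypes did not overlap, and each stood above the one before it in this order. The log2 fold change of the double mutant over WT was 4.41 ± 0.52 (SE, n = 2 libraries per genotype, adjusted p = 2.2e-11 by the likelihood ratio test, 0.0018 by the quasi-likelihood test). It was 3.96 to 4.72 when each library was left out in turn.

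*TZF11* (chr3:20776295-20778842, plus strand) held 19.6 and 6.04 CPM in WT, 22.4 and 17.7 in *urt1-1*, 33.7 and 23.0 in *xrn4-3* and 37.5 and 33.4 CPM in the double mutant. The WT libraries themselves differed by 3.25-fold, and 1 of them decided the call: the log2 fold change of 1.46 ± 0.54 (SE, n = 2) had an adjusted p of 0.0698 by the likelihood ratio test, and was 2.55, past the threshold, without WT replicate 1. It was also called with the replicate number as a block, at 1.61 (adjusted p = 0.0070 by the likelihood ratio test). The nearest relatives in the family therefore had different values, 21.3-fold and 2.74-fold, but the difference between them was not tested. Of the 2718 windows of 21 nt in *TZF10*, 23 recur in another member.

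*TZF7* (AT2G41900, chr2:17490405-17493922, plus strand), also known as *OXS2*, encodes a stress-responsive regulator. Its WT libraries held 10.8 and 15.7 CPM, *urt1-1* 11.1 and 14.6 CPM, *xrn4-3* 33.8 and 85.8 CPM and the double mutant 188 and 161 CPM. WT and *urt1-1* overlapped, and the double mutant was above all other libraries. The log2 fold change of the double mutant over WT was 3.72 ± 0.55 (SE, n = 2, adjusted p = 9.2e-08 by the likelihood ratio test, 0.0030 by the quasi-likelihood test), and 3.47 to 4.01 over the libraries left out in turn.

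*TZF9* (AT5G58620, chr5:23693340-23696222, plus strand) encodes a target of the defence kinases MPK3 and MPK6. It had the lowest small RNA level per kilobase in WT, and its small RNA rose in the double mutant. WT held 3.41 and 4.38 CPM, *urt1-1* held 2.31 and 4.57 CPM, *xrn4-3* held 6.68 and 9.32 CPM and the double mutant held 14.9 and 17.2 CPM. The log2 fold change was 2.05 ± 0.42 (SE, n = 2, adjusted p = 5.0e-05 by the likelihood ratio test, 0.0077 by the quasi-likelihood test). Its annotated locus overlaps that of *AT5G58630* on the other strand by 115 bp. In TAIR10.1 the long noncoding RNA gene *AT5G08870* on the other strand overlaps *TZF9* as well. The counting is not stated to have used strand, so reads of these overlaps cannot be assigned. The small RNA log2 fold change of *AT5G58630* in the same comparison was 0.17 (adjusted p = 0.886 by the likelihood ratio test).

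*TZF8* (chr5:4056187-4059580, plus strand), the member with the most small RNA in WT, had the largest dispersion of the 10 (0.262, against a common dispersion of 0.106). It held 67.9 and 155 CPM in WT, 104 and 198 in *urt1-1*, 50.8 and 178 in *xrn4-3* and 99.2 and 335 CPM in the double mutant. The log2 fold change of 0.96 ± 0.74 (SE, n = 2, adjusted p = 0.487 by the likelihood ratio test) was not past the threshold and ranged from -0.17 to 1.68 with libraries left out. In all 4 genotypes replicate 2 had the higher value, and the libraries overlapped. The locus of *TZF8* overlaps no other counted locus, but in TAIR10.1 the protein-coding gene *AT5G12860* on the other strand overlaps it.

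Among the members without ankyrin repeats, *TZF1* (AT2G25900, chr2:11041331-11043209, plus strand), which acts in sugar, abscisic acid and gibberellin responses, was the only one raised in the double mutant. It held 23.7 and 34.5 CPM in WT, 12.6 and 37.6 in *urt1-1*, 48.4 and 171 in *xrn4-3* and 143 and 107 CPM in the double mutant. The log2 fold change was 2.10 ± 0.67 (SE, n = 2, adjusted p = 0.0267 by the likelihood ratio test, 0.0938 by the quasi-likelihood test), and the *xrn4-3* libraries enclosed both values of the double mutant.

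*TZF2* (AT2G19810, chr2:8550313-8551858, plus strand) and *TZF3* (AT4G29190, chr4:14391938-14393373, minus strand) belong to the oxidation-related genes of the family. *TZF2* held 10.7 and 21.4 CPM in WT, 8.68 and 28.1 in *urt1-1*, 20.4 and 35.8 in *xrn4-3*, and 30.7 and 25.2 CPM in the double mutant. *TZF3* held 20.2 and 42.2 CPM in WT, 15.6 and 54.1 in *urt1-1*, 33.4 and 97.5 in *xrn4-3*, and 51.3 and 65.9 CPM in the double mutant. Both had their double mutant libraries just above WT, with log2 fold changes of 0.80 ± 0.58 and 0.91 ± 0.67 (SE, n = 2) that did not pass the threshold (adjusted p = 0.453 and 0.462 by the likelihood ratio test).

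*TZF4* (AT1G03790, chr1:954525-956097, plus strand), also called *SOMNUS*, holds back light-dependent seed germination, and *TZF5* (AT5G44260, chr5:17829626-17831225, minus strand) is a seed-preferential relative. *TZF4* had little small RNA, with 2.74 and 2.81 CPM in WT, 6.51 and 2.38 in *urt1-1*, 1.13 and 3.11 in *xrn4-3* and 3.83 and 3.55 CPM in the double mutant, from raw counts of 9 to 117 reads. *TZF5* held 26.2 and 26.3 CPM in WT, 13.6 and 21.6 in *urt1-1*, 33.4 and 184 in *xrn4-3* and 32.1 and 49.8 CPM in the double mutant. *TZF5* was the largest member in *xrn4-3* replicate 2 alone, where it took 22.4% of the member reads. In the double mutant the log2 fold changes were 0.41 ± 0.53 for *TZF4* and 0.64 ± 0.67 for *TZF5* (SE, n = 2, adjusted p = 0.713 and 0.633 by the likelihood ratio test).

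**Figure D2:**
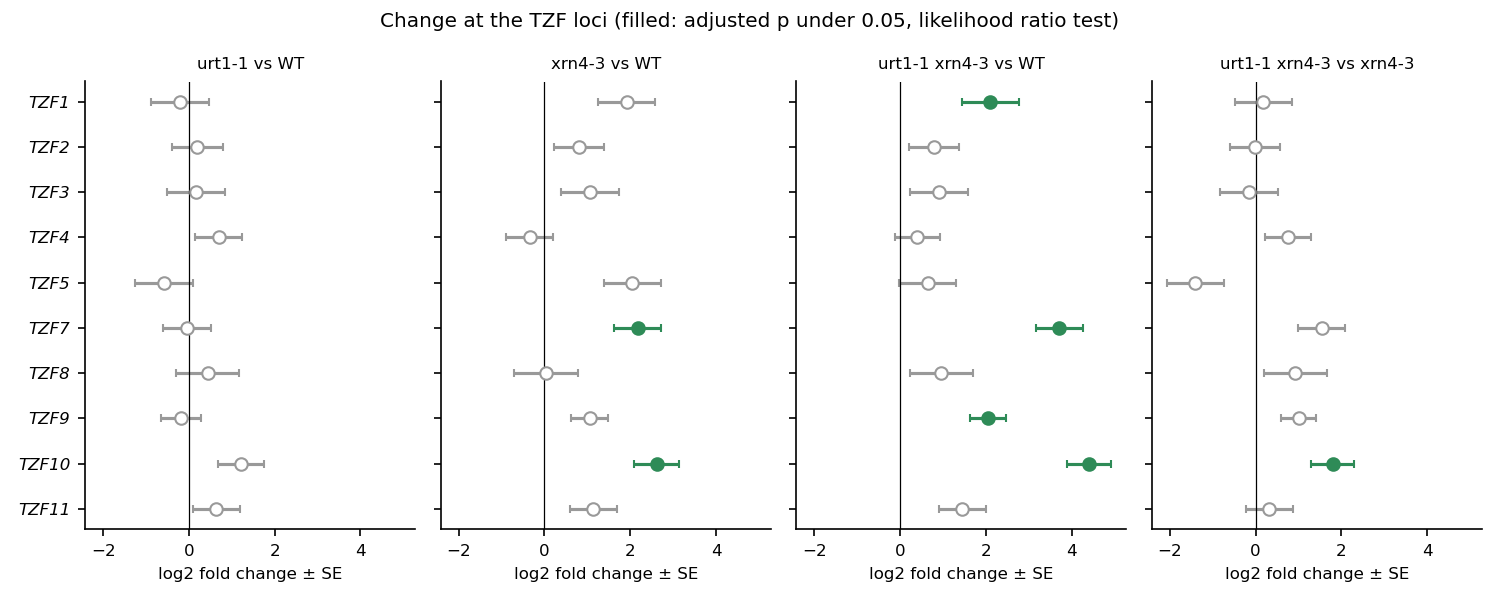
Log2 fold change with its SE for each TZF locus in 4 comparisons, filled where the adjusted p of the likelihood ratio test was under 0.05. *TZF7* and *TZF10* were past the threshold in *xrn4-3* as well as in *urt1-1 xrn4-3*, and only *TZF10* was between those mutants.

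By subgroup, 3 of 5 members with ankyrin repeats and 1 of 5 without were raised in the double mutant, where 10% of all tested loci were, with median log2 fold changes of 2.05 and 0.80, against 0.01 for all tested loci, which is a description and not a test of the subgroups. The summed CPM of the members with ankyrin repeats was 107 and 185 in WT, 148 and 246 in *urt1-1*, 144 and 329 in *xrn4-3* and 406 and 661 in the double mutant. *TZF8* alone decided much of this sum. Without it the 4 other members held 38.9 and 29.6 CPM in WT and 44.3 and 48.2 in *urt1-1*. They held 93.3 and 151 in *xrn4-3* and 307 and 326 CPM in the double mutant, with no overlap between genotypes. *TZF8* was left out with its overlapping libraries known, so this lack of overlap is a description and not a test. Of the double mutant sums, *TZF7* held 188 and 161 CPM and *TZF10* held 66.6 and 115 CPM. The members without ankyrin repeats summed to 83.6 and 127 CPM in WT, 57 and 144 in *urt1-1*, 137 and 491 in *xrn4-3* and 261 and 251 CPM in the double mutant, where the *xrn4-3* libraries enclosed both values of the double mutant.

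**Figure D3:**
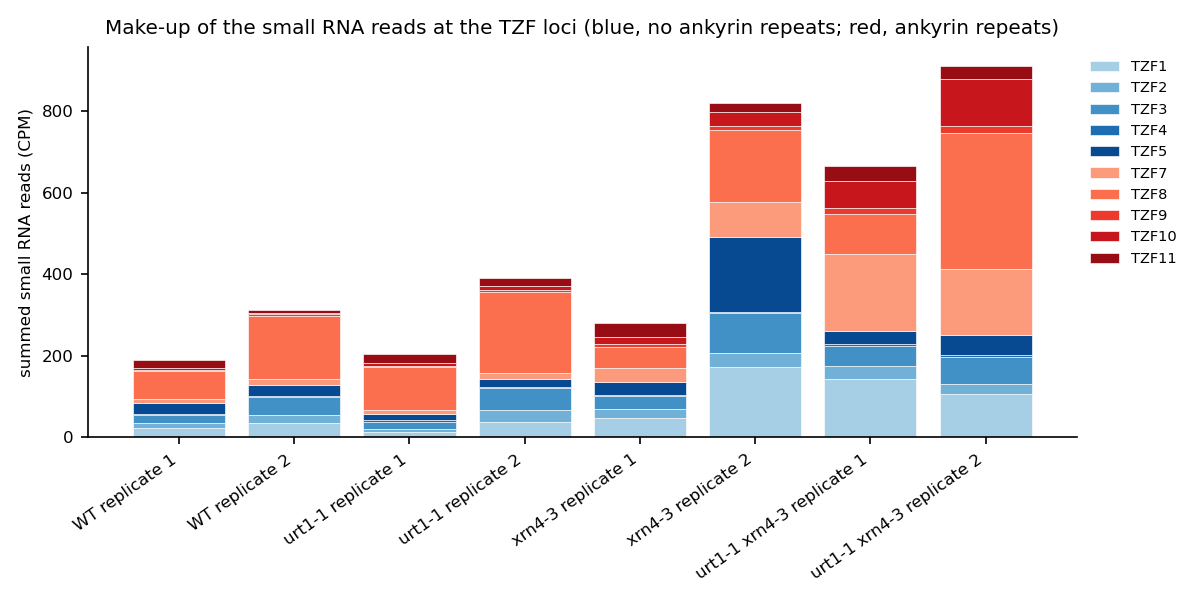
Stacked small RNA reads in CPM at the 10 TZF loci in each library, with members without ankyrin repeats in blue and with them in red. *TZF8* made up 35.6% to 50.8% of the member reads in the WT and *urt1-1* libraries, and *TZF7* was the largest member in *urt1-1 xrn4-3* replicate 1 with 28.1%.

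The share of all counted reads that fell on the 10 loci was small. It was 0.0176% (95% Wilson interval 0.0169% to 0.0183%) and 0.0302% (0.0292% to 0.0313%) in WT, and 0.0204% (0.0194% to 0.0215%) and 0.0353% (0.0338% to 0.0368%) in *urt1-1*. It was 0.0292% (0.0280% to 0.0304%) and 0.101% (0.0986% to 0.103%) in *xrn4-3*, and 0.0590% (0.0578% to 0.0603%) and 0.1001% (0.0990% to 0.101%) in the double mutant. The intervals cover counting error only and are narrower than the difference between replicates. The *xrn4-3* and double mutant libraries overlapped in this share, and both double mutant libraries were above WT and *urt1-1*. The total of the double mutant depends on the nitrate reductase genes *NIA1* and *NIA2*. Without their counts the share was 0.0805% and 0.117% in the double mutant and 0.0292% and 0.101% in *xrn4-3*, and these still overlapped.

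Loss of XRN4 alone raised the small RNA of *TZF7* and *TZF10* by the likelihood ratio test, which called no other member. In *xrn4-3* compared with WT, 2 of 10 rose and none fell, while 4.19% of the tested loci rose and 0.259% fell. *TZF10* was 6.13-fold and *TZF7* 4.51-fold higher, at log2 fold changes of 2.62 ± 0.52 and 2.17 ± 0.55 (SE, n = 2, adjusted p = 0.00016 and 0.0059 by the likelihood ratio test). The quasi-likelihood test called *TZF10* only (adjusted p = 0.0241, against 0.072 for *TZF7*), and it called 1.99% of the tested loci as raised. The *TZF10* call was lost without WT replicate 2, at a log2 fold change of 2.37, and that of *TZF7* without WT replicate 1, WT replicate 2 or *xrn4-3* replicate 2, where the value was 1.35. Without *xrn4-3* replicate 2, *TZF10* stayed called at 2.17, with 1 *xrn4-3* library left that is assumed to vary like the other genotypes.

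Both *xrn4-3* libraries lay above both WT libraries at 6 members, and at 22.9% of the tested loci. The median log2 fold change of the 10 was 1.10, and that of all tested loci 0.05. *TZF5* and *TZF1* had log2 fold changes of 2.05 ± 0.67 and 1.92 ± 0.67 (SE, n = 2) without passing the threshold (adjusted p = 0.0649 and 0.0927 by the likelihood ratio test), although DESeq2's Wald test called both (adjusted p = 0.0312 and 0.0464). A replicate block in the fit added *TZF1*, at 1.74 (adjusted p = 0.0480 by the likelihood ratio test). These values rested on *xrn4-3* replicate 2: without it the log2 fold change was 0.35 for *TZF5* and 0.74 for *TZF1*. *TZF9* and *TZF11* had log2 fold changes of 1.05 ± 0.43 and 1.14 ± 0.55 and *TZF8* of 0.04 ± 0.74 (SE, n = 2), none of them past the threshold. *TZF11* was called at 2.23 without WT replicate 1 and ranged from 0.53 to 2.23 over the libraries left out.

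**Figure D4:**
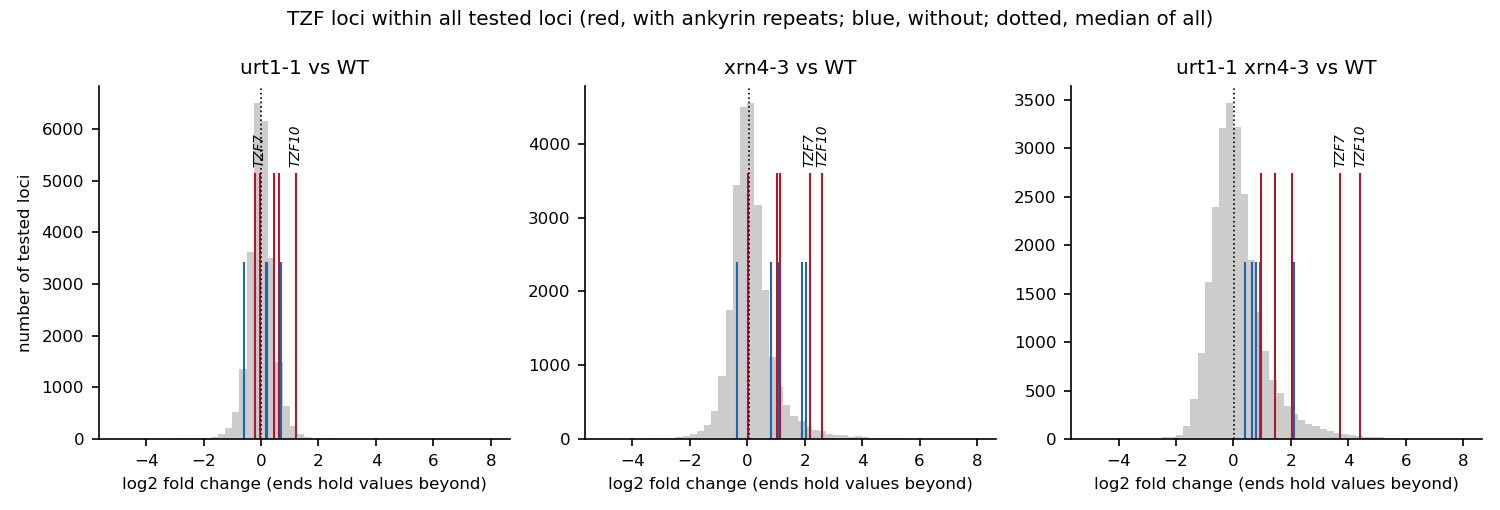
Histograms of the log2 fold changes of all 24722 tested loci in 3 comparisons, with a line for each TZF locus, red with and blue without ankyrin repeats, and a dotted line at the median of all loci. In *urt1-1 xrn4-3* the lines of *TZF7* and *TZF10* stand in the right tail at 3.72 and 4.41, and in *urt1-1* the members lie between -0.58 and 1.21.

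Loss of URT1 where XRN4 was absent too was read from the double mutant against *xrn4-3*. By the likelihood ratio test *TZF10* alone rose, 3.47-fold, with a log2 fold change of 1.79 ± 0.50 (SE, n = 2, adjusted p = 0.0308 by the likelihood ratio test), while 1.73% of the tested loci rose. The quasi-likelihood test did not call it (adjusted p = 0.168) or any other member, and called 0.166% of the tested loci as raised. By the likelihood ratio test 4 members had an unadjusted p under 0.05, among them *TZF5* with a negative log2 fold change. So did 2559 of the 24722 tested loci, in either direction. The *TZF10* call was also lost when any 1 of 6 libraries was left out, all except *xrn4-3* replicate 2 and *urt1-1 xrn4-3* replicate 1. The value stayed at 1.79 in the 4 fits without a WT or *urt1-1* library, and was 1.46 without *xrn4-3* replicate 1 and 1.35 without *urt1-1 xrn4-3* replicate 2. *TZF7* and *TZF9* had log2 fold changes of 1.54 ± 0.54 and 1.00 ± 0.41 (SE, n = 2, adjusted p = 0.150 and 0.259 by the likelihood ratio test). A replicate block in the fit added *TZF7*, at 1.67 (adjusted p = 0.0361 by the likelihood ratio test). Without *xrn4-3* replicate 2, the log2 fold changes of *TZF7* and *TZF10* were 2.37 and 2.24, with 1 *xrn4-3* library left. Both double mutant libraries were above both *xrn4-3* libraries at *TZF4*, *TZF7*, *TZF9* and *TZF10*, and at 19.8% of the tested loci. *TZF5* was the member with the lowest value, -1.40 ± 0.67 (SE, n = 2, adjusted p = 0.430 by the likelihood ratio test). That value was 0.30 without *xrn4-3* replicate 2 and -2.16 without *xrn4-3* replicate 1.

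Loss of XRN4 where URT1 was absent raised the same 4 members as the comparison with WT, while 8.35% of the tested loci rose. In the double mutant compared with *urt1-1*, the log2 fold changes were 3.76 ± 0.55 for *TZF7*, 3.20 ± 0.52 for *TZF10*, 2.32 ± 0.67 for *TZF1* and 2.25 ± 0.45 for *TZF9* (SE, n = 2). Adjusted p-values by the likelihood ratio test were 1.6e-07, 9.6e-07, 0.0143 and 3.7e-05. The quasi-likelihood test kept *TZF7*, *TZF9* and *TZF10* and not *TZF1* (adjusted p = 0.0779), and called 5.99% of the tested loci as raised. The double mutant libraries are the same in these comparisons, which therefore do not stand as separate evidence.

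Loss of URT1 alone gave no call at any member by the likelihood ratio test, the quasi-likelihood test or DESeq2's Wald test. In *urt1-1* compared with WT, 0.0243% of the tested loci rose. The member nearest to a change was *TZF10*, whose libraries did not overlap and whose log2 fold change was 1.21 ± 0.54 (SE, n = 2, unadjusted p = 0.0255 and adjusted p = 1.00 by the likelihood ratio test), the single member with an unadjusted p under 0.05. In this comparison 518 of the 24722 tested loci had an unadjusted p under 0.05, in either direction. The log2 fold changes of the 10 members ran from -0.58 at *TZF5* to 1.21, with a median of 0.18. At *TZF5* the libraries did not overlap either, with *urt1-1* at 13.6 and 21.6 CPM below WT at 26.2 and 26.3 CPM. The share of all tested loci without overlap was not counted for *urt1-1* compared with WT. The interaction, in which the effect of *urt1-1* in WT is subtracted from its effect in *xrn4-3*, was called for no member by any of these tests, and for 0.089% of the tested loci it was positive and called. *TZF7* had the largest value of the 10, 1.59 ± 0.78 (SE, n = 2, unadjusted p = 0.0435 and adjusted p = 0.943 by the likelihood ratio test), followed by *TZF9* at 1.19 ± 0.62, so that a dependence of the *urt1-1* effect on *xrn4-3* was not shown at any member.

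**Figure D5:**
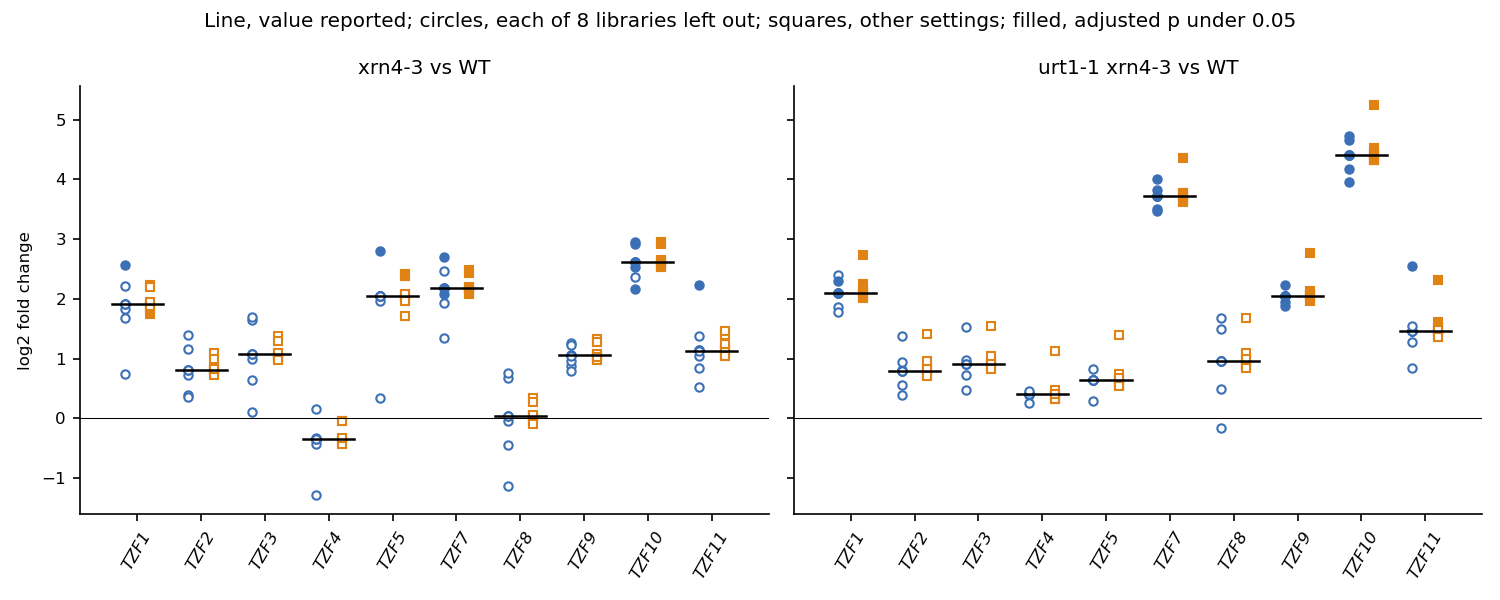
Log2 fold change of each TZF locus in *xrn4-3* and in *urt1-1 xrn4-3* compared with WT, as reported (line), with each of 8 libraries left out (circles) and under other settings (squares), filled where the adjusted p was under 0.05. *TZF7*, *TZF9* and *TZF10* were filled throughout in the double mutant, while the values of *TZF1* and *TZF5* in *xrn4-3* spread from 0.74 to 2.56 and from 0.35 to 2.81.

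The replicates of a genotype often differed in the same direction across the members. Replicate 2 held the higher CPM at 8 of 10 members in WT, 8 in *urt1-1*, 9 in *xrn4-3* and 5 in the double mutant, against 50.1% to 53.5% of the tested loci. *TZF3*, *TZF5*, *TZF8* and *TZF9* were higher in replicate 2 of all 4 genotypes, and *TZF11* was lower in it in all 4. Whether libraries of 1 number were grown at the same time in all genotypes is not given in the sources used here.

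Other CCCH genes and genes of the TZF protein network gave a setting for these values. Of 22 other genes with CCCH fingers, 5 rose and none fell in the double mutant compared with WT, where 10% of all tested loci rose and 1.05% fell, and the median log2 fold change was 0.49, against 0.01 for all tested loci. The quasi-likelihood test called 3 of the 22, against 7.31% of the tested loci. *TZF6*, counted among the 22, was not called, at 1.49 ± 0.61 (SE, n = 2, adjusted p = 0.0949 by the likelihood ratio test). Compared with *urt1-1* it was called at 2.12 ± 0.73 (SE, n = 2, adjusted p = 0.0306 by the likelihood ratio test, 0.0924 by the quasi-likelihood test). The most raised of the 22 was *AT3G51950*, a CCCH gene with 149 and 171 CPM in WT and 1216 and 1061 CPM in the double mutant, a log2 fold change of 2.83 ± 0.54 (SE, n = 2, adjusted p = 0.012 by the quasi-likelihood test). *ZFN1*, *ZFN3*, *KHZ1* and *AT1G32360* rose by 1.88, 1.73, 1.63 and 1.16 on the log2 scale by the likelihood ratio test, and the calls of *KHZ1* and *AT1G32360* were lost in the quasi-likelihood test. Each of these 4 calls was lost in at least 1 fit that left out a library.

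Of 15 genes for known partners of TZF proteins or for granule proteins, 3 rose and none fell, against the same 10% of all tested loci raised, with a median of 0.48. The quasi-likelihood test called 2 of the 15, against 7.31%. *MARD1*, whose product binds TZF proteins of the seed, held 3.93 and 8.86 CPM in WT, 6.51 and 17.0 in *urt1-1*, 68.0 and 257 in *xrn4-3* and 333 and 232 CPM in the double mutant. Its log2 fold change in the double mutant was 5.47 ± 0.71 (SE, n = 2, adjusted p = 0.0030 by the quasi-likelihood test), above those of *TZF10* and *TZF7*, and it was also called in *xrn4-3*, at 4.67 ± 0.71. *UBP1B*, for a stress granule RNA-binding protein, and *PAB4*, for a poly(A)-binding protein, had log2 fold changes of 1.62 and 1.23 by the likelihood ratio test. The quasi-likelihood test did not call *PAB4* (adjusted p = 0.0749), and each of these 2 calls was lost in at least 1 fit that left out a library. Genes for MPK3 and MPK6 were not called.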

How the data were processed

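Small RNA libraries (3 µg of RNA, 18 to 30 nt) of 4 genotypes, 2 each, were examined. The authors trimmed the reads, selected a length of 14 to 30 nt, aligned them with Bowtie 1.0.0 to the TAIR10 genome (1 mismatch, at most 50 loci, best alignments retained) and counted them with BEDTools 2.17.0. The deposited raw counts per mRNA locus were used. The 8 CPM columns deposited by the authors do not sum to 1000000 and were not used.

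Here CPM are counts scaled by library total and TMM factor. The main test, after the study's methods, was the likelihood ratio test of edgeR 4.0.16 in R 4.3.3 (all 8 libraries in 1 fit, filterByExpr with a count minimum of 10, Benjamini-Hochberg adjustment over the 24722 tested loci, threshold 0.05). Other settings tried were edgeR's quasi-likelihood test, DESeq2 1.42.0, 2 other library sizes, 2 other filters on low counts, counts without the nitrate reductase genes *NIA1* and *NIA2*, the replicate number as a block, and the omission of 1 library at a time. With 2 libraries against 2 an exact permutation test cannot go below 0.333, so none is given.

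The members, the lists of other CCCH genes and of partners, and the tests were chosen with earlier results of these data known. Named were all members, *TZF6*, *URT1* and *XRN4*, loci overlapping a member, and, of the lists, at most 5 loci per direction called in *urt1-1 xrn4-3* compared with WT. No tissue markers were used, since small RNA at a locus does not measure its mRNA. Locus codes matched TAIR10.1 for 24447 of 24859 loci. Locus positions are those of the deposited TAIR10 table, and positions of sequences are those of TAIR10.1.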

Additional observations from a re-analysis of the deposited data

How the results depend on the processing

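Of the 954 values of single members under other settings, 917 stayed on their side of the threshold, 17 passed it in addition and 20 no longer did. Most of the 917 were values not called in the reported fit, so their number says little about how firm the calls were. The sign differed from the reported one in 59 of the 917, all of them values that were not called, and in none of the others. In *xrn4-3* compared with WT, 2 members were called, against 1 by the quasi-likelihood test, 4 by DESeq2 and 4 with library size only, and 0 to 4 with a library left out. The raised share of all tested loci was 4.19%, against 1.99%, 3.36% and 5.89%, and 1.62% to 6.57% with a library left out. Library size only moved the median of all tested loci from 0.05 to 0.31. In *urt1-1 xrn4-3* compared with *xrn4-3*, 1 member was called, against 0 by the quasi-likelihood test, 0 with library size only and 2 with the replicate block, and 0 to 2 with a library left out. The raised share of all tested loci was 1.73%, against 0.166%, 0.76% and 2.54%, and 0.531% to 2.66% with a library left out. Library size only moved that median from -0.01 to -0.20. In the other 4 comparisons the number of calls stayed within 1.5 times the reported one. The cause of these changes was not tested.

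The study defines biological replicates as plants grown at separate times, but the sources used here do not say that a number marks 1 time in all genotypes. The deviations of same-numbered libraries from their genotype means correlated at 0.00571 to 0.419, above 0.1 in 4 of the 6 pairs of genotypes. The main fit left the replicate number out, and these correlations are no reason for that choice. With the replicate number as a block, 0, 3, 5, 2, 4 and 0 members were called in *urt1-1*, *xrn4-3* and the double mutant compared with WT, in the double mutant compared with *xrn4-3* and with *urt1-1*, and in the interaction, against 0, 2, 4, 1, 4 and 0 without it. It added *TZF1* in *xrn4-3*, *TZF11* in the double mutant compared with WT and *TZF7* in the double mutant compared with *xrn4-3*, and changed no other call. The raised share of all tested loci was also higher with the block in each of these comparisons. Where members were added, that share was 4.98%, 11.7% and 2.54% in the same order, against 4.19%, 10% and 1.73% without the block. Whether the added calls are particular to the members was not tested.

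With all genome-mapped reads as library sizes, all tested loci shifted in the double mutant compared with WT, their median log2 fold change moving from 0.01 to 0.74. The value of *TZF10* was then 5.24 and that of *TZF11*, newly called, 2.31. With these library sizes 19.9% of the tested loci were called as raised, against 10% in the reported fit. As a percent of genome-mapped reads, the members held 0.00418% in WT, 0.00443% in *urt1-1*, 0.0109% in *xrn4-3* and 0.0210% in the double mutant, against 0.0239%, 0.0279%, 0.0649% and 0.0796% of counted reads. Depth limits *TZF4* most, with 9 reads in 1 library.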
